A study of Rattus norvegicus with 6 samples.

Results

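Gng12 and Plcb1 are 2 of the 24744 loci in a transcript annotation of rat brain, and they hold 19 of its 64488 quantified isoforms, 10 in the Gng12 locus and 9 in the Plcb1 locus. A locus is a group of overlapping or neighbouring transcripts that the assembler StringTie joined under one identifier, and the members are all isoforms of the loci in which a transcript carries either gene name. Both genes were selected on isoforms that differed between strains in these same libraries, so their differences are given with their spread and without a test. PolyA RNA was sequenced from the whole brain of 3 SHR/OlaIpcvPrin rats (SHR, the spontaneously hypertensive rat) and 3 BN-Lx/CubPrin rats (BNLx, a Brown Norway line), both inbred strains. Every animal was a naïve male with no treatment or transgene, and no age is given in the sources used here. The 3′ ends come from StringTie and from aptardi, a program that adds transcript ends predicted from read coverage and DNA sequence.

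Heterotrimeric G proteins carry signals from receptors in the cell membrane to enzymes inside the cell. Gng12 encodes a gamma subunit, which binds a beta subunit and holds the dimer at the membrane through a lipid anchor. Plcb1 encodes a beta-class phospholipase C that is activated by alpha subunits of the Gq class and splits a membrane phosphoinositide into inositol trisphosphate and diacylglycerol, which release calcium and activate protein kinase C. In the rodent forebrain, Plcb1 is best known from neurons of the cortex and hippocampus.

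In 1 library of each strain, SHR replicate 1 and BNLx replicate 3, expression over the loci tested lay away from that of the other libraries of its strain. The Pearson correlation of log2 counts-per-million (CPM) values over these loci was 0.990 between SHR replicates 2 and 3 and 0.985 between BNLx replicates 1 and 2. For SHR replicate 1 it was 0.937 and 0.944 within its strain, and for BNLx replicate 3 it was 0.927 and 0.912. Across strains, SHR replicate 1 reached 0.948 with BNLx replicate 1, close to the 0.949 of SHR replicate 2 with that library. Nrgn, a marker of cortex and hippocampus, had 358, 1131 and 1184 CPM in SHR replicates 1 to 3 and 1708, 1801 and 99.3 CPM in BNLx replicates 1 to 3. Neurod6, another such marker, had 12.3, 44.5 and 59.0 CPM in SHR and 49.5, 45.1 and 3.08 CPM in BNLx. Drd2, a marker of striatum, had 79.3 CPM in SHR replicate 1 and between 4.54 and 13.1 CPM elsewhere, and Lef1, a marker of thalamus, had 69.8 CPM in BNLx replicate 3 and between 4.55 and 5.75 CPM elsewhere. Zic1, a listed marker of cerebellum, was high in both, with 64.7 CPM in SHR replicate 1 and 72.1 CPM in BNLx replicate 3. It had between 7.06 and 10.5 CPM elsewhere. Neuronal markers (Snap25, Syt1 and Gad1) summed to between 2414 and 3307 CPM in SHR and between 2530 and 4433 CPM in BNLx. Within that sum, SHR replicate 1 had the most Gad1 (525 CPM) and the least Snap25 (874 CPM) of all libraries. Log2 fold changes that these libraries move by over 1.5 times are given with and without them. In whole brain, fewer cells of a type and less RNA per cell cannot be told apart.

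The Gng12 locus (STRG.17426) lies on the plus strand of chromosome 4 in rn6, and 7 of its 10 isoforms carried all 3 introns of the reference Gng12 transcript, ENSRNOT00000075400. These full transcripts had 2 starts. STRG.17426.1 and the isoforms derived from it begin at position 97635034 with a first exon of 455 bases and have 5 exons, whereas STRG.17426.2 and its derivatives begin 22637 bases downstream, at position 97657671, and have 4 exons. The full transcripts had 6 distinct annotated 3′ ends in 2 clusters. The near cluster held the ends at 97760102 (STRG.17426.2, the reference form) and 97760125, and the far cluster held the ends at 97763425, 97763525, 97763565 and 97763625. A gap of 3300 bases separated the clusters, and within the far cluster the ends lay 100, 40 and 60 bases apart. Aptardi predicts ends in bins of 100 bases and sets each at the last base of its bin. The ends at 97763425, 97763525 and 97763625 are therefore edges of neighbouring bins, and where transcripts end within a bin is not known. Of the 10 isoforms, 5 were added by aptardi. STRG.17426.1.1 and STRG.17426.2.3 had no counts in any library, and 5 of the 10 passed the filter of 50 counts or more in 2 libraries of a strain.

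**Figure D1:**
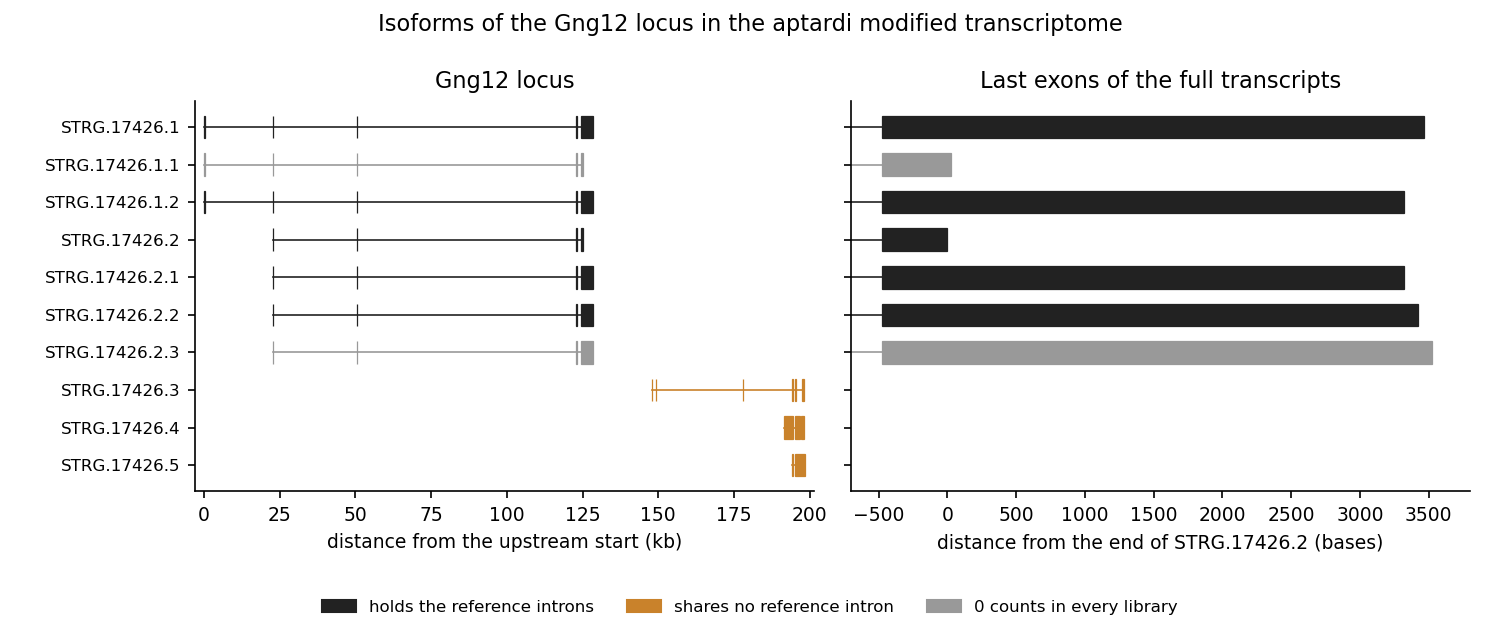
Isoforms of the Gng12 locus, with exons as boxes and introns as lines. The left panel gives the distance from the upstream start in kb and the right panel the distance of the last exons from the end of STRG.17426.2 in bases. The 7 full transcripts share their last intron and differ in start and in last exon length, while STRG.17426.3, STRG.17426.4 and STRG.17426.5 lie beyond the last full 3′ end.

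Summed over the locus, Gng12 was lower in SHR brain. The locus had 46.1, 47.5 and 38.8 CPM in SHR replicates 1 to 3, against 65.6, 55.6 and 76.7 CPM in BNLx replicates 1 to 3. The ranges did not overlap, and the means were 44.1 ± 4.67 CPM in SHR and 66.0 ± 10.5 CPM in BNLx (SD, n = 3 each). The log2 fold change of SHR over BNLx was -0.58 (standard error 0.15), where the median over all loci was 0. The full transcripts alone behaved alike, with 41.3 ± 4.05 CPM in SHR and 62.9 ± 10.7 CPM in BNLx and a log2 fold change of -0.61 (standard error 0.16). With SHR replicate 1 and BNLx replicate 3 left out, the log2 fold change of the locus was -0.50 (standard error 0.13).

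In transcripts-per-million (TPM), which divides counts by isoform length, the locus totals overlapped. They were 35.7, 36.4 and 32.9 TPM in SHR and 39.3, 35.1 and 56.1 TPM in BNLx, and BNLx replicate 2 lay among the SHR libraries. The log2 fold change on the log2(TPM + 1) scale was -0.28 (standard error 0.19). The short reference form weighs more in TPM: STRG.17426.2 has 707 spliced bases, against 4130 in STRG.17426.2.2.

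The isoform with the largest count in BNLx, STRG.17426.2.2, was the one that separated the strains. It starts at the downstream start, ends at 97763525 and was added by aptardi 3423 bases beyond the end of the reference form. It had 498, 269 and 279 expected counts in SHR and 1232, 437 and 477 in BNLx. As CPM these were 11.9, 12.8 and 12.8 in SHR, against 39.1, 38.0 and 37.6 in BNLx and the replicates of each strain lay close together, far from those of the other strain. The log2 fold change was -1.61 (standard error 0.13) and kept within -1.63 and -1.57 when each library was left out in turn, including SHR replicate 1 and BNLx replicate 3.

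Its neighbour STRG.17426.2.1 has the same exons and stops 100 bases earlier, at 97763425. It had 22.6, 19.5 and 12.6 CPM in SHR, against 11.8, 7.69 and 21.3 CPM in BNLx. The strains overlapped because BNLx replicate 3 lay among the SHR libraries, and the log2 fold change was 0.42 (standard error 0.44). Leaving out 1 library moved it to between 0.14 (BNLx replicate 2 left out) and 0.90 (BNLx replicate 3 left out, standard error 0.36), with 0.24 for SHR replicate 1. Without SHR replicate 1 and BNLx replicate 3 it was 0.72 (standard error 0.35). Only reads that reach these 100 bases, or fragments whose length points to them, separate the isoforms, so the division of counts between them rests on a small part of transcripts of 4030 and 4130 bases.

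Taken as one pair, the STRG.17426.2.1 and STRG.17426.2.2 isoforms had 33.6, 32.1 and 25.4 CPM in SHR and 49.7, 45.8 and 57.5 CPM in BNLx, without overlap. The log2 fold change of their sum was -0.75 (standard error 0.15), which is smaller in size than that of STRG.17426.2.2 alone. Within the pair, STRG.17426.2.2 took 34.5, 39.7 and 50.3% of the counts in SHR and 76.8, 83.2 and 63.8% in BNLx. Every SHR library was below every BNLx library, and the closest values were those of SHR replicate 3 and BNLx replicate 3.

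**Figure D2:**
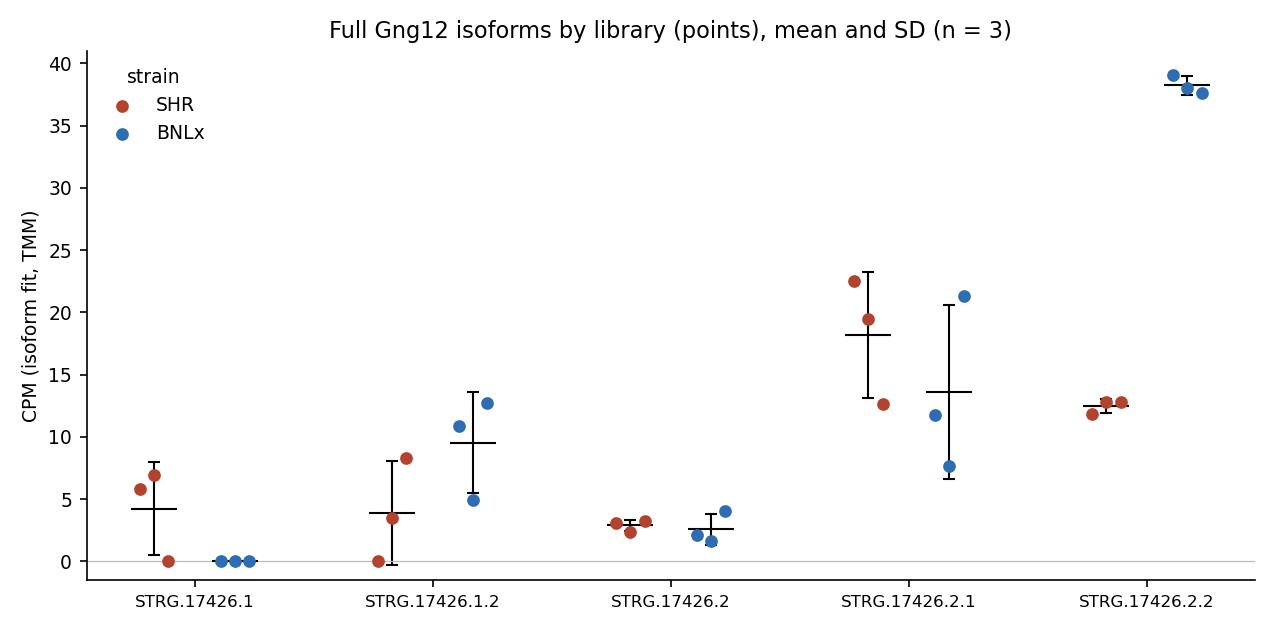
CPM of the 5 full Gng12 isoforms that had counts, with 1 point for each library, SHR left of BNLx, and the mean and SD of 3 libraries as bars. STRG.17426.2.2 lies at 11.9 to 12.8 CPM in SHR and at 37.6 to 39.1 CPM in BNLx, while the other isoforms overlap between strains.

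STRG.17426.2.2 is the only isoform that ends at 97763525, so its share is also the share of that annotated 3′ end, which is a bin edge. The end held 27.4, 28.4 and 34.6% of the full transcripts' counts in SHR and 61.2, 72.7 and 49.7% in BNLx, a difference of -31.1 percentage points. The end at 97763425, shared by STRG.17426.2.1 and STRG.17426.1.2, held 52.1, 50.9 and 56.7% in SHR and 35.5, 24.2 and 45.0% in BNLx. Since shares sum to a fixed total, a lower share at one end raises the others. In CPM the end at 97763425 had 22.6, 22.9 and 21.0 in SHR against 22.6, 12.7 and 34.1 in BNLx, with means of 22.1 ± 1.03 and 23.1 ± 10.7 CPM (SD, n = 3 each), and the SHR values lay within the BNLx range.

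The 2 clusters of ends differed far less. The far cluster held 92.9, 94.7 and 91.3% of the counts in SHR and 96.7, 96.9 and 94.7% in BNLx, a difference of -3.12 percentage points. The lowest BNLx value and the highest SHR value differed by less than the rounding of these percentages. The near cluster, which is the reference form alone, had 2.98, 2.39 and 3.21 CPM in SHR against 2.09, 1.62 and 3.92 CPM in BNLx, with a log2 fold change of 0.16 (standard error 0.38). Any 1 library left out moved that value to between -0.05 (BNLx replicate 2) and 0.59 (BNLx replicate 3), with 0.02 for BNLx replicate 1, 0.28 for SHR replicate 2 and 0.08 for SHR replicate 3. Without SHR replicate 1 and BNLx replicate 3 it was 0.54 (standard error 0.27). The far cluster had 39.2, 42.5 and 33.7 CPM in SHR against 60.3, 50.8 and 69.9 CPM in BNLx, with a log2 fold change of -0.65 (standard error 0.16). The far cluster did not overlap between strains, and the SHR values of the near cluster all lay within the BNLx range.

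Per length, the near cluster was a larger part of Gng12. It held 35.6, 29.5 and 40.8% of the full transcripts' TPM in SHR and 20.1, 18.8 and 29.2% in BNLx. The ranges met closely, with 29.5% in SHR replicate 2 and 29.2% in BNLx replicate 3. The far cluster's TPM share differed by -12.6 percentage points between strains.

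**Figure D3:**
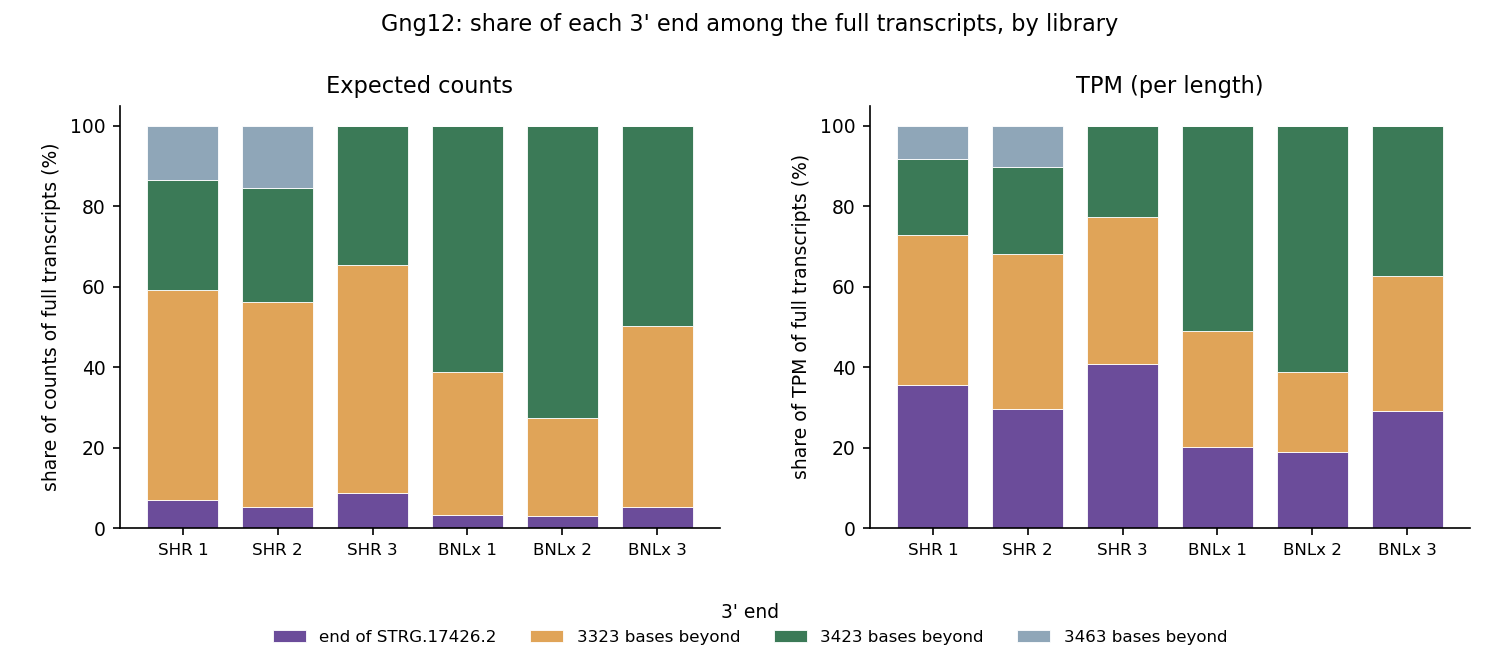
Share of each 3′ end among the full Gng12 transcripts in each library, in expected counts (left) and in TPM (right), with SHR libraries left of BNLx libraries. The end at 3423 bases beyond STRG.17426.2 takes 27.4 to 34.6% of the counts in SHR and 49.7 to 72.7% in BNLx.

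The upstream start was used by a minor part of Gng12 in both strains. Full transcripts with the 455-base first exon made 13.4, 23.1 and 22.5% of the counts in SHR and 17.0, 9.50 and 16.9% in BNLx, with overlap. Their sum was 5.66, 10.4 and 8.30 CPM in SHR against 10.6, 4.98 and 12.4 CPM in BNLx, a log2 fold change of -0.22 (standard error 0.39). Its sign and size depended on single libraries, from -0.51 with BNLx replicate 2 left out to 0.03 with BNLx replicate 3 left out. It was -0.01 with SHR replicate 1, -0.43 with SHR replicate 2 and -0.12 with BNLx replicate 1 left out. Without SHR replicate 1 and BNLx replicate 3 it was 0.19 (standard error 0.33). The isoforms behind this sum were less even. STRG.17426.1, which ends at 97763565, had 244 and 146 expected counts in SHR replicates 1 and 2 and 0 in SHR replicate 3 and in all 3 BNLx libraries. STRG.17426.1.2, which has the same start and ends 140 bases earlier, had 0 in SHR replicate 1, 72.6 and 181 in SHR replicates 2 and 3, and 343, 57.1 and 162 in BNLx. The library with no counts for the one had counts for the other, and no fold change is given for STRG.17426.1.

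STRG.17426.3, STRG.17426.4 and STRG.17426.5 share no intron with Gng12 and begin 19312, 63052 and 65715 bases beyond its last full 3′ end. STRG.17426.5 is the reference transcript ENSRNOT00000084701 of another annotated gene, AABR07060862.1, and STRG.17426.3 overlaps exons of Gadd45a, a DNA damage response gene on the minus strand, over 235 of its 1364 bases. The libraries did not mark strand, so reads of Gadd45a and of STRG.17426.3 cannot be told apart there. Together these isoforms had 3.96, 2.62 and 1.91 CPM in SHR against 3.24, 3.24 and 2.86 CPM in BNLx, a log2 fold change of -0.13 (standard error 0.32), or 0.09 without SHR replicate 3. None passed the count filter, and the full transcripts held 91.4 to 95.1% of the locus's counts in SHR and 94.2 to 96.3% in BNLx.

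Across the 6 libraries, the gene totals most like Gng12 among 3948 loci with a single name were those of Plekhh1, Mobp, Tmem88b, Prr5l and Rnpc3, by Pearson r of log2(CPM + 0.5). The r values lay between 0.993 for Plekhh1 and 0.973 for Rnpc3, they describe 6 points that share library and strain, and the genes were picked for them. Mobp encodes a protein of myelin, the membrane sheath made by oligodendrocytes. It had 502, 425 and 290 CPM in SHR against 970, 686 and 1530 CPM in BNLx and did not overlap between strains. The part of oligodendrocyte RNA in the Gng12 total was not tested.

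The Plcb1 locus (STRG.14446) lies on the plus strand of chromosome 3 in rn6. Of its 9 isoforms, 5 were full transcripts made by StringTie that carried all 28 introns of a reference transcript. STRG.14446.1, STRG.14446.2 and STRG.14446.3 begin at 127721403, and STRG.14446.4 (ENSRNOT00000006389) and STRG.14446.5 (ENSRNOT00000051184) begin at 128155117 and 128155069, at least 433666 bases downstream. Full transcripts end at 128349864 or 69681 bases further, at 128419545. The first of these ends lies in an exon of 118 bases that STRG.14446.1 includes and STRG.14446.4 skips. The remaining 4 isoforms were single exons beyond the last full 3′ end. STRG.14446.6, STRG.14446.6.1 and STRG.14446.6.2 begin 623 bases after it and measure 6495, 700 and 1200 bases, the shorter pair being aptardi's versions of the first. STRG.14446.7 begins 25055 bases after it, at 128444601, and ends at 128445084, a length of 484 bases. STRG.14446.5 and STRG.14446.6 had no counts in any library, and 5 of the 9 isoforms passed the count filter.

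**Figure D4:**
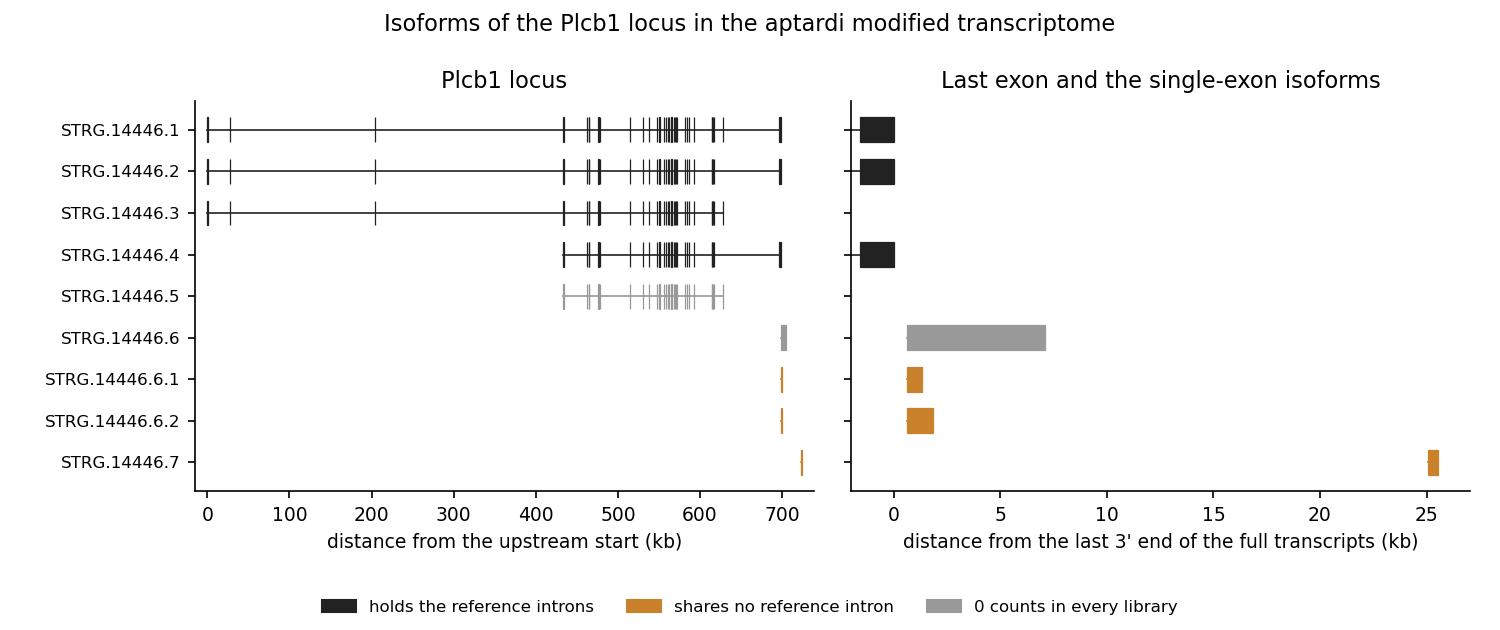
Isoforms of the Plcb1 locus, with exons as boxes and introns as lines. The left panel gives the distance from the upstream start in kb and the right panel the distance from the last 3′ end of the full transcripts in kb. The 4 single-exon isoforms lie beyond the full transcripts, with STRG.14446.7 at a distance of 25055 bases.

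The locus total of Plcb1 varied widely among libraries of one strain. It was 168, 302 and 305 CPM in SHR against 213, 236 and 63.9 CPM in BNLx. SHR replicate 1 and BNLx replicate 3 were the lowest libraries of their strains and the ranges overlapped, with means of 258 ± 78.0 CPM in SHR and 171 ± 93.3 CPM in BNLx (SD, n = 3 each). The log2 fold change was 0.60 (standard error 0.50), and 0.20 (standard error 0.28) without BNLx replicate 3 or 0.90 without BNLx replicate 2. With SHR replicate 1 and BNLx replicate 3 left out it was 0.43 (standard error 0.07), from libraries that no longer overlapped. That fit rests on SHR replicates 2 and 3 and BNLx replicates 1 and 2 only. In it 31.5% of all loci tested passed, so little is read from a small standard error there, here or below.

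The full transcripts gave the same picture. They had 121, 254 and 247 CPM in SHR against 173, 193 and 53.0 CPM in BNLx, a log2 fold change of 0.57 (standard error 0.52), or 0.18 (standard error 0.34) without BNLx replicate 3, 0.87 without BNLx replicate 2 and 0.45 (standard error 0.07) without SHR replicate 1 and BNLx replicate 3. Nrgn and Neurod6 were likewise lowest in SHR replicate 1 within SHR and in BNLx replicate 3 within BNLx, and their part in the Plcb1 level was not tested.

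Nearly all counts of the full transcripts lay in 2 isoforms. STRG.14446.1, with the upstream start and the 118-base exon, had 56.9, 131 and 121 CPM in SHR against 76.8, 85.2 and 30.2 CPM in BNLx, a log2 fold change of 0.68 (standard error 0.49). STRG.14446.4, with the downstream start and without the exon, had 67.6, 119 and 113 CPM in SHR against 101, 108 and 24.2 CPM in BNLx, a log2 fold change of 0.36 (standard error 0.57). Both overlapped between strains. Without BNLx replicate 3 the log2 fold changes were 0.34 for STRG.14446.1 and -0.07 for STRG.14446.4, and without both SHR replicate 1 and BNLx replicate 3 they were 0.64 and 0.16. Leaving out 1 other library gave 0.47 to 0.98 for STRG.14446.1 and 0.23 to 0.67 for STRG.14446.4. STRG.14446.2 was above 0 only in SHR replicate 3, with 306 counts, and STRG.14446.3 only in SHR replicate 2, with 139 counts.

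The balance within the full transcripts was close to even in both strains. STRG.14446.1 took 45.7, 51.1 and 48.6% of their counts in SHR and 43.2, 44.2 and 55.5% in BNLx, and the strains overlapped. Transcripts with the 118-base exon took 45.7, 53.7 and 48.6% in SHR and the same 43.2, 44.2 and 55.5% in BNLx as STRG.14446.1, because no other isoform with the exon had counts there. The choice of start and the choice of exon can therefore not be told apart in BNLx. The last 3′ end held 100% of the full counts in every library but SHR replicate 2, where it held 97.4%.

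The distant single-exon isoform STRG.14446.7 separated the strains. It had 854, 296 and 464 expected counts in SHR, against 10.7, 3.26 and 4.13 in BNLx. As CPM these were 20.3, 14.1 and 21.3 in SHR against 0.339, 0.284 and 0.326 in BNLx, with no overlap and a log2 fold change of 5.87 (standard error 0.31). Leaving out each library in turn gave values from 5.76 to 6.04.

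STRG.14446.7 did not follow the full transcripts. For every 100 counts of the full transcripts it had 16.3, 5.51 and 8.60 counts in SHR and 0.191, 0.147 and 0.599 in BNLx. SHR replicate 1 had the fewest full Plcb1 transcripts of its strain and nearly the most of STRG.14446.7. STRG.14446.7 shares no exon and no intron with Plcb1, and no other transcript of the annotation overlaps it. No rn6 sequence was used here, so copies of its 484 bases elsewhere in the genome were not looked for.

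The near single-exon isoforms showed no such contrast. STRG.14446.6.1 had 7.99, 12.6 and 12.7 CPM in SHR against 9.79, 11.4 and 4.61 CPM in BNLx, and STRG.14446.6.2 had 21.5 ± 1.91 CPM in SHR and 22.4 ± 14.0 CPM in BNLx (SD, n = 3 each). Their sum was 27.0, 33.5 and 36.1 CPM in SHR against 38.8, 42.5 and 10.6 CPM in BNLx. Like the full transcripts, the sum was lowest in BNLx replicate 3, and its log2 fold change was 0.07 (standard error 0.48). With SHR replicate 1 and BNLx replicate 3 left out, the log2 fold change of the sum was -0.22 (standard error 0.09), and without BNLx replicate 3 alone it was -0.34. Leaving out 1 other library gave -0.01 to 0.37.

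An unnamed locus on the opposite strand, STRG.14447, covers 93.29% of STRG.14446.6.1 and 96.08% of STRG.14446.6.2 and runs from 128419542 to 128426663. It had 18.9, 30.8 and 27.3 CPM in SHR against 33.0, 43.9 and 7.62 CPM in BNLx, lowest in BNLx replicate 3 like its partners. Without strand in the libraries, reads of STRG.14447 and of the near single-exon isoforms cannot be told apart. Per TPM of the full transcripts, the near isoforms had 1.33, 0.843 and 0.909 TPM in SHR and 1.28, 1.28 and 1.33 TPM in BNLx.

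**Figure D5:**
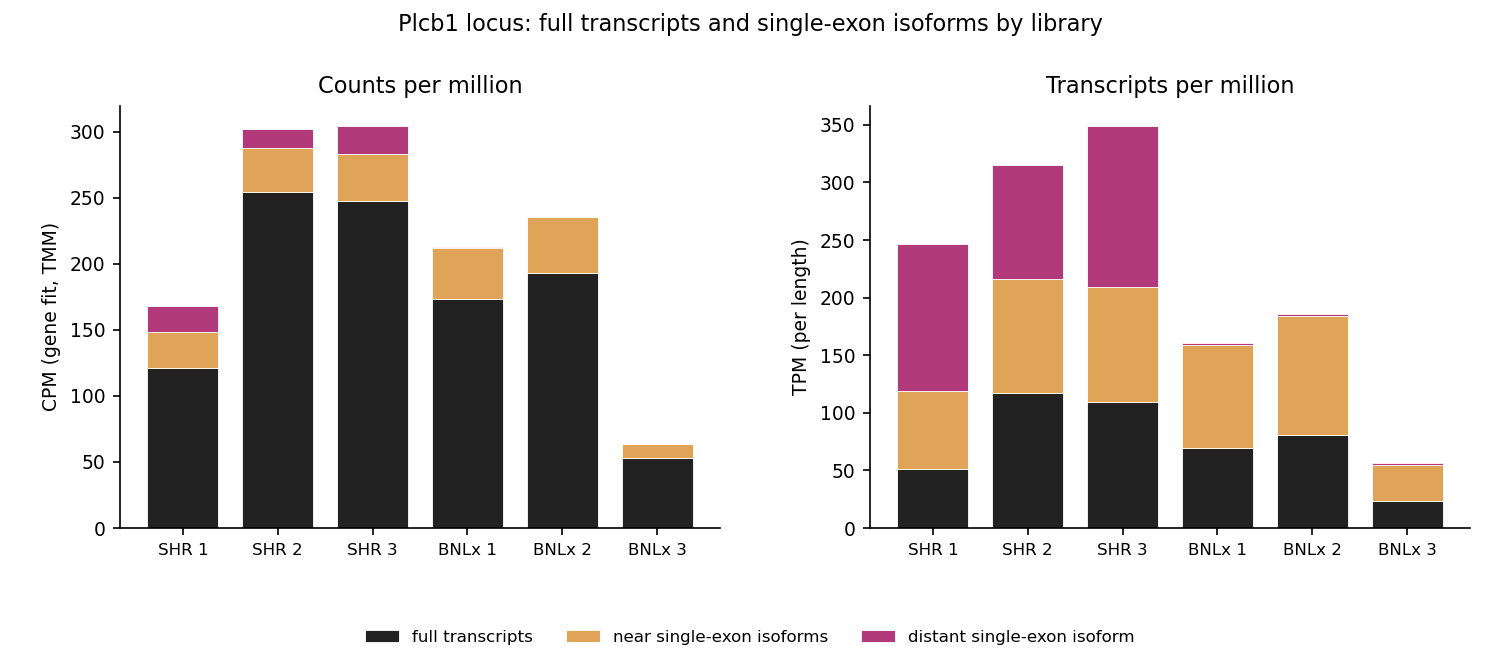
Level of the Plcb1 locus in each library in CPM (left) and TPM (right), stacked by full transcripts, near single-exon isoforms and the distant single-exon isoform, with SHR libraries left of BNLx libraries. In CPM the distant isoform is a thin layer in SHR, and in TPM it takes 31.6 to 51.5% of the SHR bars and 0.954 to 3.83% of the BNLx bars.

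The single-exon isoforms weighed more in the TPM of the locus than in its counts. The locus had 246, 315 and 349 TPM in SHR against 161, 186 and 56.7 TPM in BNLx, without overlap, whereas its CPM overlapped. STRG.14446.7 alone made 51.5, 31.6 and 40.2% of the locus's TPM in SHR and 1.23, 0.954 and 3.83% in BNLx. In counts its share was 11.8, 4.64 and 6.98% in SHR and 0.156, 0.120 and 0.498% in BNLx. The full transcripts had 51.2, 117 and 110 TPM in SHR against 69.6, 80.4 and 23.4 TPM in BNLx, and these ranges overlapped. On the log2(TPM + 1) scale the locus total had a log2 fold change of 1.33 (standard error 0.45), against 0.60 in counts.

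By gene totals over the 6 libraries, the loci most like Plcb1 among 3947 with a single name were Enc1, Speg, Dlgap3, Adgrb2 and Prmt8. Their r values, 0.996 to 0.997, again describe 6 points that share library and strain, and these genes too were picked for them. Dlgap3 encodes a scaffold protein of excitatory synapses, and it had 240, 336 and 336 CPM in SHR against 282, 299 and 160 CPM in BNLx. Like Plcb1, each of the 5 genes was lowest in BNLx replicate 3, next lowest in SHR replicate 1 and overlapped between strains. That likeness follows from how they were picked and is not a separate result.

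Other genes of the pathway were taken from 7 lists of 136 symbols: G protein gamma, beta and alpha subunits, phospholipases C, Gq-coupled receptors, second messenger effectors and RGS proteins, which switch alpha subunits off. A locus carried the name of 53 of them, 6 of these loci carried other names as well, and 43 single-name genes passed the count filter. In edgeR's quasi-likelihood test of SHR against BNLx, 0 of the 43 had an adjusted p of 0.05 or less, against 1.02% of all 14471 loci tested. At an unadjusted p under 0.05 in that test there were 4 (Plcb4, Prkce, Trpc1 and Trpc5). DESeq2 called 0 of the 43, against 543 of all 14471 loci. Of their 111 tested isoforms 0 reached an unadjusted p of 0.001 with edgeR, against 1% of all 32348 isoforms tested, while 11 were under 0.05. DESeq2 called 4, in Plch2, Prkce and Dgkb, against 3.6% of all isoforms tested, and no result about the lists is read from that count. Isoform usage differed at an adjusted p of 0.05 in 0 of 31 loci by edgeR, against 2.63% of 7742 loci. Of the 31, 2 were under an unadjusted 0.05, and limma called 0, against 175 of the 7742. Shares of all features under an unadjusted 0.05 are not given here, so no result about the lists is read from those counts. The median log2 fold change of the 43 genes was 0.06, against 0 over all loci.

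The gene calls depended on SHR replicate 1 and BNLx replicate 3. With both left out, 16 of 41 listed genes were called, 9 higher and 7 lower in SHR, against 31.5% of all loci tested. So large a background leaves no result about the lists to be read from this count. Of their isoforms 5 of 103 were called, against 3.88% of all, and by usage 8 of 30 loci, against 14.7% of all.

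Among gamma subunits, Gng10, Gng11 and Gng7 had a named locus. Gng10 had 119 ± 20.4 TPM in SHR and 104 ± 30.0 TPM in BNLx (SD, n = 3 each), which is above Gng12 per length in both strains, and its log2 fold change in counts was 0.09 (standard error 0.31, edgeR adjusted p = 0.956). Without SHR replicate 1 and BNLx replicate 3 that of Gng10 was -0.38 and passed (edgeR adjusted p = 0.0412). In that setting 31.5% of all loci tested passed, so little is read from a pass there, for Gng10 or for Gng7 below. Gng11 had 13.2 ± 6.99 TPM in SHR and 13.8 ± 3.86 TPM in BNLx, with a log2 fold change of -0.10 (standard error 0.44), or -0.47 without these libraries, which did not pass. Gng7, a gamma subunit best known from striatal neurons, had 563, 138 and 134 CPM in SHR against 169, 154 and 71.1 CPM in BNLx, in a locus that also carries other names. It was highest in SHR replicate 1, the library with the most Drd2. Its log2 fold change was 1.08 (standard error 0.66, edgeR adjusted p = 0.656), and without SHR replicate 1 and BNLx replicate 3 it was -0.26 and passed (edgeR adjusted p = 0.0404).

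Plcb4, another beta-class phospholipase C, known in the rodent brain from thalamus and cerebellar Purkinje cells, had the lowest unadjusted p of the phospholipases. It had 42.5, 64.1 and 53.7 CPM in SHR against 76.8, 78.4 and 234 CPM in BNLx. The ranges did not overlap, but the log2 fold change of -1.28 (standard error 0.48) did not pass the test (edgeR adjusted p = 0.431). With SHR replicate 1 and BNLx replicate 3 left out, it was -0.40 and passed (edgeR adjusted p = 0.0270), as did 31.5% of all loci tested. BNLx replicate 3 was thus the library with the most Plcb4 and Lef1 and with the least Plcb1. Plcb2 and Plcb3 were not analysed here.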

How the data were processed

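Whole-brain polyA libraries of 3 SHR and 3 BNLx males, made with an unstranded kit and sequenced as paired reads of 100 bases, were analysed. The authors aligned reads with HISAT2 to genomes of each strain derived from rn6 and merged the alignments. They assembled transcripts with StringTie 1.3.5 on the basis of Ensembl and extended the set of 3′ ends by aptardi with the rn6 sequence. Abundances were estimated with RSEM. Whether sequence differences between the strains affected the counts was not tested. Libraries were spread over 3 lanes, and which lanes held which library is not given in the sources used here. The deposited expected counts of isoforms and genes were rounded to whole numbers for the fits, and the deposited TPM values were used as they are. Transcript positions were read from the deposited annotation. Total expected counts ran from 21745968 to 41333079 in SHR and from 11747048 to 32826625 in BNLx.

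Isoforms and loci that reached 50 counts in 2 libraries of either strain were fitted by strain with edgeR 4.0.16 (TMM, quasi-likelihood) in R 4.3.3, isoform usage with diffSpliceDGE, and alternatives with DESeq2 1.42.0 and limma 3.58.1. Standard errors of edgeR log2 fold changes were derived as the size of the log2 fold change over the square root of the quasi-likelihood F statistic. Tests were also tried on simulated data. CPM of isoforms and of totals come from separate fits, whose scales differ slightly. An isoform was called full when it held at least 80% of a reference transcript's introns. Members, lists and tests were chosen with earlier results of these data known. The text names every isoform of the members, listed genes that passed a test, the 3 gamma subunits with the highest TPM and Plcb2 to Plcb4. It also names the 5 loci most like each member (mean of at least 10 CPM). Genes with a total under an unadjusted 0.05 or with an isoform called by DESeq2 were added after their values were seen. Genes called only under other settings are not all named. A listed gene without a named locus was not analysed here, and many have none. Some listed marker genes are not reported here. Replicates are separate animals. Deviations of same-numbered SHR and BNLx libraries from their strain means correlated at r = -0.066, 0.35 and -0.241 for replicates 1 to 3. The 0.35 was the highest r of any SHR and BNLx combination. The libraries were not paired in the main fits, and so few cannot show that a shared batch is absent.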

Additional observations from a re-analysis of the deposited data

How the results depend on the processing

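For the members' log2 fold changes, the RLE size factors, the absence of a count filter and DESeq2 gave values within 1 SD of the replicates. Limma on log2(TPM + 1) and log2(TPM + 0.1) moved Gng12's total to -0.28 under both, STRG.17426.2.2 to -1.40 and -1.52, and, with the pseudocount of 1, STRG.14446.7 to 5.36. With ends within 100 bases joined, the share at the end of STRG.17426.2.2 differed by -3.12 percentage points, since the joined end holds the whole far cluster. TPM shares moved the difference of the far cluster to -12.6 percentage points and that of STRG.14446.7 to 39.1. Of 280 log2 values under alternatives 17 had the other sign or rounded to 0. All were for STRG.17426.2, STRG.14446.4, STRG.14446.6.2, the isoforms without a Gng12 intron, the near single exons, the near 3′ end or the upstream start.

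Leaving out each library gave ranges of -0.69 to -0.46 for Gng12's total, 0.20 to 0.90 for Plcb1's total (0.20 without BNLx replicate 3), -1.63 to -1.57 for STRG.17426.2.2 and 5.76 to 6.04 for STRG.14446.7. The share differences ranged from -36.8 to -25.3 for the end of STRG.17426.2.2, from -3.97 to -2.28 for the far cluster and from 5.55 to 9.12 for STRG.14446.7. Pathway genes called stayed at 0, isoforms ranged from 0 to 2 and loci by usage from 0 to 1. The highest values came without SHR replicate 1, where 378 of all 30211 isoforms and 348 of all 7356 loci by usage were called. Without SHR replicate 1 and BNLx replicate 3 together, the calls were 16 genes, 5 isoforms and 8 loci, against 31.5, 3.88 and 14.7% of all tested. DESeq2 called 4 pathway isoforms (3.6% of all) and the absence of a filter gave 1 (0.643% of all). The replicate block gave 1 pathway locus by usage, and over all features it called 0 loci, 48 isoforms and 220 loci by usage. Under the block the log2 fold changes were -0.57 for Gng12, 0.73 for Plcb1, -1.61 for STRG.17426.2.2 and 5.88 for STRG.14446.7. Full at 50% of introns chose the same isoforms. With 3 libraries a strain and as few as 3.26 counts of STRG.14446.7 in a BNLx library, the size of its fold is imprecise, and values between 2 ends 100 bases apart rest on few reads.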
